A study of Arabidopsis thaliana with 16 samples.

Results

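The 9 genes of male reproduction described here were 5 genes of the pollen grain and pollen tube and 4 oleosin-domain genes of the tapetum. They were 9 of 32548 loci in a table of leaf and shoot apical meristem (SAM) libraries and 9 of 32833 in a table of seedling libraries. They were selected on their measured values in tcx5/6 and wild-type SAM libraries, so each of their values from SAM libraries is given as a description, with no test.

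The RNA-seq series covers Arabidopsis thaliana in 16 libraries, which make 8 groups of 2 replicates. The groups were tcx5/6 SAM and WT SAM, tcx5/6 leaf and WT leaf, and seedlings of the genotypes tcx5/6 ddm1, ddm1, tcx5/6 and WT. tcx5/6 stands for tcx5-/- tcx6-/-, tcx5/6 ddm1 adds ddm1-/-, and WT is wild type. Per the labels, seedlings were 2 weeks old and leaves 1 month old, no separate age is given for SAM, and plants grew on MS plates at 22 °C with 16 h of light. Tissue was taken from the sample titles, since the tissue field names seedlings for all libraries. TCX5 and TCX6 are CXC-domain proteins, and DDM1 is a chromatin remodeller that keeps DNA methylated. The labels do not state that replicates came from separate plants, so a p-value here reflects the spread between libraries, which may be technical.

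Values are in signal, the deposited read counts after adjustment to a common library size, not divided by gene length. Library totals were 45.4 to 59.3 M in leaf and SAM and 31.1 to 38.8 M in seedlings. These totals were adjusted, so the depth sequenced is unknown. TCX5 averaged 521 ± 44.4 in tcx5/6 SAM and 981 ± 11.7 in WT SAM (SD, n = 2 each), while TCX6 averaged 1859.7 ± 14.9 in tcx5/6 SAM and 454 ± 89.1 in WT SAM. TCX6 was thus higher in libraries labelled tcx5/6, and DDM1 averaged 612 ± 60.6 in seedlings labelled tcx5/6 ddm1, 132 ± 18.7 in ddm1, 1992.9 ± 96.0 in tcx5/6 and 679 ± 43.4 in WT. DDM1 was thus lower in tcx5/6 ddm1 than in tcx5/6 and in ddm1 than in WT. Where in each gene the reads lie cannot be seen from the values, so groups are named here by their labels. Libraries labelled SAM carried flower and anther transcripts as well as meristem ones. The 16 floral identity genes summed to 18269 and 17977 in tcx5/6 SAM and to 24932 and 24237 in WT SAM, against 2339.9 to 2681 in leaf libraries. The 11 shoot meristem genes summed to 11831 and 11381 in tcx5/6 SAM and to 11309 and 11277 in WT SAM.

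Pollen forms inside the anther, where the tapetum, the innermost wall layer, feeds the developing grains and then breaks down. Its oleosin-domain proteins end up in the lipid-rich coat of the grain, which takes up water from the stigma at pollination. The grain itself makes pectin-modifying enzymes and a plasma membrane proton pump, which act as the pollen tube grows through the pistil. Among the pollen genes, PPME1, VGD1 and VGDH2 encode pectin methylesterases, PGA4 a polygalacturonase, which cuts pectin, and HA6 a plasma membrane proton-pumping ATPase. VGD1 is needed for growth of the tube through the style. Among the tapetal genes, GRP17 encodes a coat protein needed for rapid hydration of the grain. GRP14, GRP18 and GRP19 encode related glycine-rich oleosin-domain proteins.

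All 9 genes lie on the minus strand of TAIR10.1, as annotated by RefSeq. PPME1 (AT1G69940) spans chr1:26343275-26345058, PGA4 (AT1G02790) chr1:610363-612324, VGD1 (AT2G47040) chr2:19327853-19330197, HA6 (AT2G07560) chr2:3169908-3174102 and VGDH2 (AT3G62170) chr3:23016174-23018509. The oleosin genes form a cluster on chromosome 5. GRP14 (AT5G07510) spans chr5:2377703-2378829, GRP18 (AT5G07520) chr5:2379898-2381317, GRP17 (AT5G07530) chr5:2382381-2384525 and GRP19 (AT5G07550) chr5:2388225-2389249. None of the 9 overlaps another annotated locus. Over aligned bases, with gaps left out, coding sequences of the cluster members were 76.8% to 88.4% identical in pairwise alignments. Much of GRP17 was not aligned: of its 1632 coding bases, 320 aligned with GRP19 and 680 with GRP18. No stretch of 50 bases in the 4 transcripts was found elsewhere in the genome. VGD1 shared 2.72% of its 50-base stretches with other places in the genome, and PPME1 5.22%. The near copy of VGD1, VGDH1, was 92.1% identical over 1757 aligned coding bases, so a few reads of this pair could be assigned to either gene.

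The 250 bases upstream of the annotated start are shown for 2 pollen genes and 2 oleosin genes. Each was lower in tcx5/6 SAM than in WT SAM, as were the other chosen genes. Of the chosen oleosin genes, GRP17 had the largest and GRP19 the smallest log2 difference there. TTTGAA and TTCGAA were searched on both strands, since in animals such elements are bound by the CXC-domain protein of the DREAM complex. Capitals mark TTTGAA or its reverse complement in the pollen pair, with none in VGD1. In the oleosin pair they mark the longest run of bases that GRP17 and GRP19 share, sought after the sequences were seen.
PPME1, chr1:26345059-26345308, minus strand: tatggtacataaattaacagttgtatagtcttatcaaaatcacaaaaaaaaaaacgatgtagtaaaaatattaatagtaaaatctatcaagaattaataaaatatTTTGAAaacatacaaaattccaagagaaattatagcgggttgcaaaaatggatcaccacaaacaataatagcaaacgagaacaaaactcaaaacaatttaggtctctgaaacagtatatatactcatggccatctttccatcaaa
VGD1, chr2:19330198-19330447, minus strand: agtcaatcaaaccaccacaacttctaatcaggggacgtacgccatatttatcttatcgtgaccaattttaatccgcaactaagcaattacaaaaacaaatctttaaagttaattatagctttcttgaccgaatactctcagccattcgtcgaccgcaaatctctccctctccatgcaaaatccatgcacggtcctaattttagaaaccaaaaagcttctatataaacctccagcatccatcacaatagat
GRP17, chr5:2384526-2384775, minus strand: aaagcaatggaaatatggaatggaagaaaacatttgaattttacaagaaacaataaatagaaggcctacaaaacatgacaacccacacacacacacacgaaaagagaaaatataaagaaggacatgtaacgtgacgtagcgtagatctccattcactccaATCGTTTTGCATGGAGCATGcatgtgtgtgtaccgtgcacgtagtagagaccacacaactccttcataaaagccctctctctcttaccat
GRP19, chr5:2389250-2389499, minus strand: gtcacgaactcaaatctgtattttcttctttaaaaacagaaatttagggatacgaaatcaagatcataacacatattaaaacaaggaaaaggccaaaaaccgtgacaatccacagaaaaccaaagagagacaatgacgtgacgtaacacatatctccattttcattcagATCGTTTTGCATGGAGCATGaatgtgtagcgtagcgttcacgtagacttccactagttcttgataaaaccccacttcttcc
The shared run ATCGTTTTGCATGGAGCATG is 20 bases long and begins 90 bases before the start of GRP17 and 81 bases before that of GRP19. It was found in the promoters of 3 of 27443 protein-coding genes, which were GRP17, GRP19 and the neighbouring oleosin gene GRP16. GRP17 and GRP19 hold the run by the way it was chosen, so its rarity is not read as a result. Other pairs of the cluster share longer runs, 30 bases in GRP14 and GRP18 and 27 in GRP17 and GRP16, each found in 2 promoters. TTTGAA was in the promoters of 4 of the 9 genes (PPME1, HA6, GRP14 and GRP17), against 38.8% of all promoters of this length. TTCGAA, which cannot overlap TTTGAA, was in GRP14 and GRP18, against 7.54% of all. The E2F-type elements GCGGGAAA and GGCGGGAA, which share letters, were in none of the 9, against 0.619% and 0.517% of all, and the G-box CACGTG was in none, against 6.49%. AGAAA, known from late pollen promoters of tomato, was in all 9, against 82.5% of all. A match of AGAAA can share a base with the other motifs. These matches describe letters only.

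In SAM libraries the pollen genes were close to or at 0 in tcx5/6 and between 479 and 1243 in WT. PPME1 was listed at 0 in both tcx5/6 SAM libraries, against 699 and 479 in WT SAM. VGD1 stood at 5.72 and 1.74 in tcx5/6 SAM, against 1116 and 888 in WT SAM. VGDH2 stood at 0.953 and 0 in tcx5/6 SAM, against 787 and 539 in WT SAM. All 3 methylesterase genes therefore had both tcx5/6 libraries far under both WT libraries. PGA4 stood at 7.43 and 16.6 in tcx5/6 SAM, against 1243 and 1069 in WT SAM. HA6 stood at 0 and 3.73 in tcx5/6 SAM, against 562 and 592 in WT SAM. The tcx5/6 means came to 1.04% of the WT mean for PGA4, 0.372% for VGD1, 0.323% for HA6 and 0.0718% for VGDH2. Differences of log2(signal + 1) were -6.56 for PGA4, -7.86 for VGD1, -8.05 for HA6 and -8.87 for VGDH2. With tcx5/6 values this low, the size of these differences depends on the pseudocount, and no fold is given for PPME1.

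The tapetal oleosin genes were lower in tcx5/6 SAM by a smaller factor and stayed abundant there. GRP17 stood at 1964 and 1976 in tcx5/6 SAM, against 17330.3 and 15329 in WT SAM. GRP19 stood at 1595 and 1789.7 in tcx5/6 SAM, against 9982 and 8589.7 in WT SAM. Both replicates of a genotype lay close together, and the genotypes did not overlap. GRP14 stood at 285 and 272 in tcx5/6 SAM, against 2031 and 1866 in WT SAM. GRP18 stood at 112 and 102 in tcx5/6 SAM, against 672 and 604 in WT SAM. The tcx5/6 means came to 12.1% of the WT mean for GRP17, 14.3% for GRP14, 16.8% for GRP18 and 18.2% for GRP19. The log2 differences were -3.05 for GRP17, -2.80 for GRP14, -2.56 for GRP18 and -2.45 for GRP19. Summed over the 4 genes, signal was 3956 and 4139.6 in tcx5/6 SAM, against 30016 and 26389 in WT SAM. Summed over the 5 pollen genes, it was 14.1 and 22.1 in tcx5/6 SAM, against 4407 and 3568 in WT SAM. In both tcx5/6 SAM libraries all 9 genes lay under both WT SAM libraries, as did 33.2% of all genes tested. Fewer cells of a type and less RNA per cell cannot be told apart in such bulk samples.

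**Figure D1:**
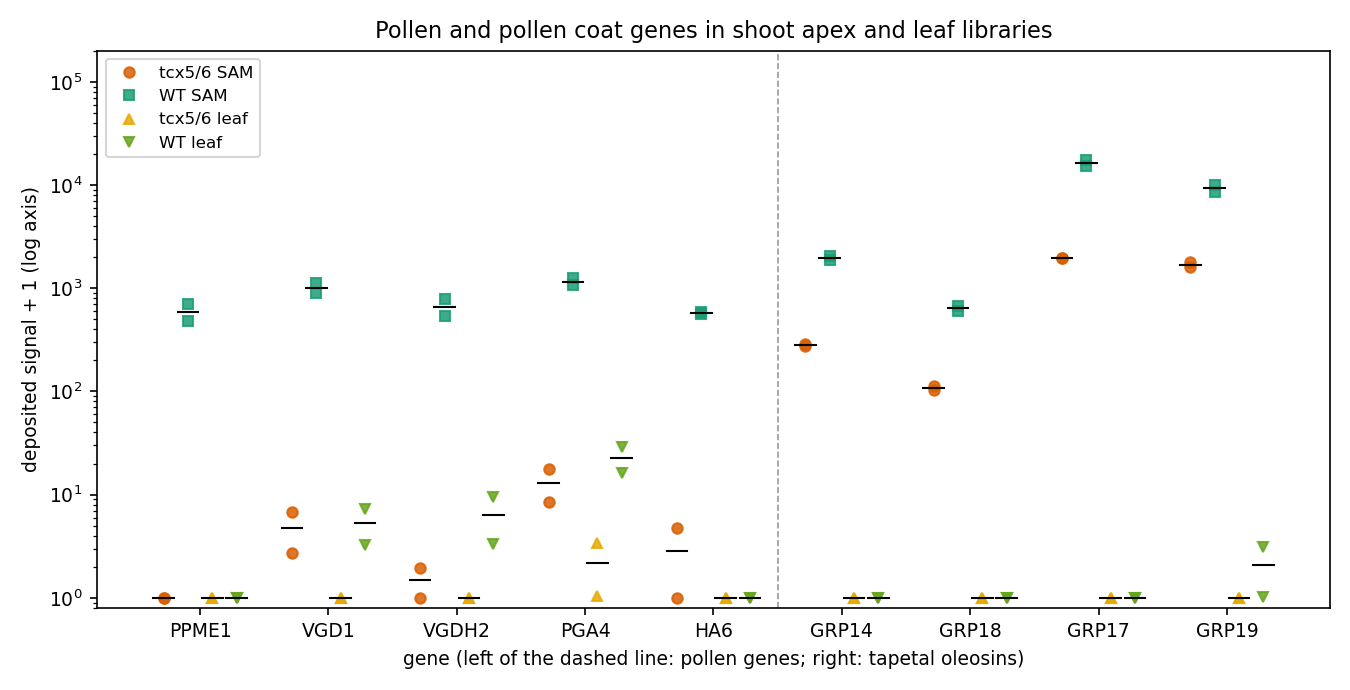
Deposited signal + 1, on a log axis, of the 9 genes in tcx5/6 SAM, WT SAM, tcx5/6 leaf and WT leaf libraries; points are single libraries and short lines the mean of 2. The 5 pollen genes are at 16.6 signal or less in tcx5/6 SAM, while the 4 oleosin genes range from 102 to 1976 there.

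Per kilobase of transcript, the order of levels in WT SAM placed the tapetal genes GRP19, GRP17 and GRP14 on top, with GRP18 under the pollen gene PGA4. GRP19 had 13580.4 and 11687 signal per kb and GRP17 had 9155 and 8098, followed by GRP14 with 2529.6 and 2324. PGA4 had 737 and 634 signal per kb, GRP18 had 620.3 and 558, and VGD1 had 494 and 393. PPME1 had 483 and 331, VGDH2 had 348 and 239, and HA6 had 161 and 169.9. The replicates of VGD1 and PPME1 overlapped, as did those of PPME1 and VGDH2. In tcx5/6 SAM, GRP19 had 2170.2 and 2435 signal per kb and GRP17 had 1037 and 1044, still the highest of the 9.

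Other genes of pollen were read from lists of known markers, picked with earlier results of these data known. Tests on these lists are therefore not independent support for the values of the chosen genes. The fits used limma-trend on log2(signal + 1), where a gene was called at a Benjamini-Hochberg adjusted p under 0.05 over all genes tested. Of 52 pollen genes, 48 were tested in tcx5/6 SAM against WT SAM: 26 fell, 1 rose and 21 did not pass. Over all 24429 genes tested, 14.5% fell and 15.6% rose. The median log2 difference was -1.66 for the pollen list and 0 over all genes. Of the 48, 11 would not have passed the filter on low values (at least 1 in 2 of 8 libraries) without the WT SAM libraries, and 10 of these are among the 26. Their direction was largely set by the filter, so the 26 is not read against 14.5%. Without genes that needed 1 SAM group to pass, counted so after the values were seen, 16 of 37 fell, 1 rose and 20 did not pass, with a median of -1.08, where 13.7% of all such genes fell and 16.1% rose. The pectate lyase-like gene AT3G01270 was listed at 0 in both tcx5/6 SAM libraries and stood at 429 and 400.2 in WT SAM (adjusted p = 0.000277). The polygalacturonase gene AT3G07820 was likewise listed at 0 in tcx5/6 SAM, against 390.4 and 297 in WT SAM (adjusted p = 2.13e-05). The pectin methylesterase gene AT5G07410 stood at 5.57 and 12.9 in tcx5/6 SAM, against 1079 and 793 in WT SAM, a log2 difference of -6.60 ± 0.48 (SE, adjusted p = 0.000112). These 3 pectin enzymes had the largest differences among list genes that averaged at least 100 in a SAM group. The gene that rose was CNGC18, a pollen tube calcium channel, named after its values were seen, at 659.8 and 679 in tcx5/6 SAM against 125 and 134 in WT SAM. Many pollen markers were scarce in every SAM library: 21 of the 52 stayed under 20 signal in all 4. Without WT SAM replicate 1, 15 of the list were called lower, and without WT SAM replicate 2, 17 were.

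Among the 8 sperm genes, 5 were tested. DAZ3 was at 0 in both tcx5/6 SAM libraries and in leaf, against 1.75 and 3.27 in WT SAM, so it passed the filter through WT SAM alone and its call there (adjusted p = 0.0159) is not counted. The other 4 did not pass. DAW1 stood at 2167 and 2137.5 in tcx5/6 SAM against 1640.4 and 1676 in WT SAM, with an adjusted p of 0.110. Since 6 of these 8 genes stayed under 20 signal in all 4 SAM libraries, the list says little about sperm cells.

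The pollen coat list held 16 other genes of the coat and the late tapetum, and 15 were tested in SAM. Of these, 11 fell, none rose (also at an unadjusted p under 0.05) and 4 did not pass, with a median log2 difference of -2.31. Of the 11, 3 had passed the filter only through WT SAM. Without them 8 of 12 fell and the median was -1.92, where 13.7% of all genes so filtered fell. AT5G61605, a PCP-B type coat peptide, stood at 7.50 and 11.02 in tcx5/6 SAM, against 222 and 245 in WT SAM (log2 -4.53 ± 0.36 SE, adjusted p = 0.000156). GRP16, an oleosin gene between GRP17 and GRP19, stood at 115 and 108 in tcx5/6 SAM, against 1726 and 1791 in WT SAM (log2 -3.96 ± 0.28 SE, adjusted p = 0.000102). GRP20, the next oleosin gene beyond GRP19, stood at 418 and 380.1 in tcx5/6 SAM, against 3273 and 2949 in WT SAM (log2 -2.96 ± 0.43 SE, adjusted p = 0.00233). All 3 oleosin genes of this list that were tested fell, AT5G07600 being the third, chosen here after its values were seen.

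Genes of earlier tapetum development and of the exine, the outer pollen wall, were read in the same way. Of 26 genes, 25 were tested in SAM: 2 fell, none rose and 23 did not pass, with a median of -0.51, where 14.5% of all genes fell. At an unadjusted limma-trend p under 0.05, 6 were lower and none higher. This 6 is not read against 14.5%, which is a share at adjusted p. Summed signal of the 26 genes was 18100.1 and 17849 in tcx5/6 SAM, against 25693 and 24405 in WT SAM. The 2 that fell were named after their values were seen. LTP12, a tapetal lipid transfer protein gene, stood at 2153 and 2024 in tcx5/6 SAM, against 4067 and 3758 in WT SAM (log2 -0.90, adjusted p = 0.0213). DRL1, a reductase of exine synthesis, stood at 1479 and 1530.2 in tcx5/6 SAM, against 2190.3 and 1948 in WT SAM (log2 -0.46, adjusted p = 0.0176). QRT3, a polygalacturonase that separates the grains of a tetrad, stood at 419 and 399 in tcx5/6 SAM, against 1219 and 1254 in WT SAM (adjusted p = 0.0578). AMS, a master transcription factor of the tapetum, stood at 487 and 506 in tcx5/6 SAM, against 1007 and 931 in WT SAM (adjusted p = 0.174). AT1G06170, a bHLH factor gene of the tapetum, stood at 160.0 and 114 in tcx5/6 SAM, against 291 and 227 in WT SAM (adjusted p = 0.0896). With only the 2 SAM groups in the fit, 14 of the 25 fell and 1 rose, when 19.7% of all genes fell. Leaving out a single SAM library left 0 or 1 called lower, 0 of them without tcx5/6 replicate 2 or WT replicate 1 and 1 without tcx5/6 replicate 1 or WT replicate 2.

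The share of signal left in tcx5/6 SAM was compared across the lists for genes that averaged at least 50 over the 4 SAM libraries, a level set after the values were seen. Among 22 tapetum and exine genes it ranged from 33.1% to 125% of the WT mean, with a median of 70.3%. Among 11 other pollen coat genes it ranged from 3.97% to 79.2%, with a median of 26.2%. Among 20 other pollen genes it ranged from 0% to 515%, with a median of 35.9%, and 9 of the 20 were under 25%. The 5 pollen genes chosen had at most 1.04% left and the 4 oleosin genes 12.1% to 18.2%. These shares describe the libraries, and the differences between lists were not tested.

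**Figure D2:**
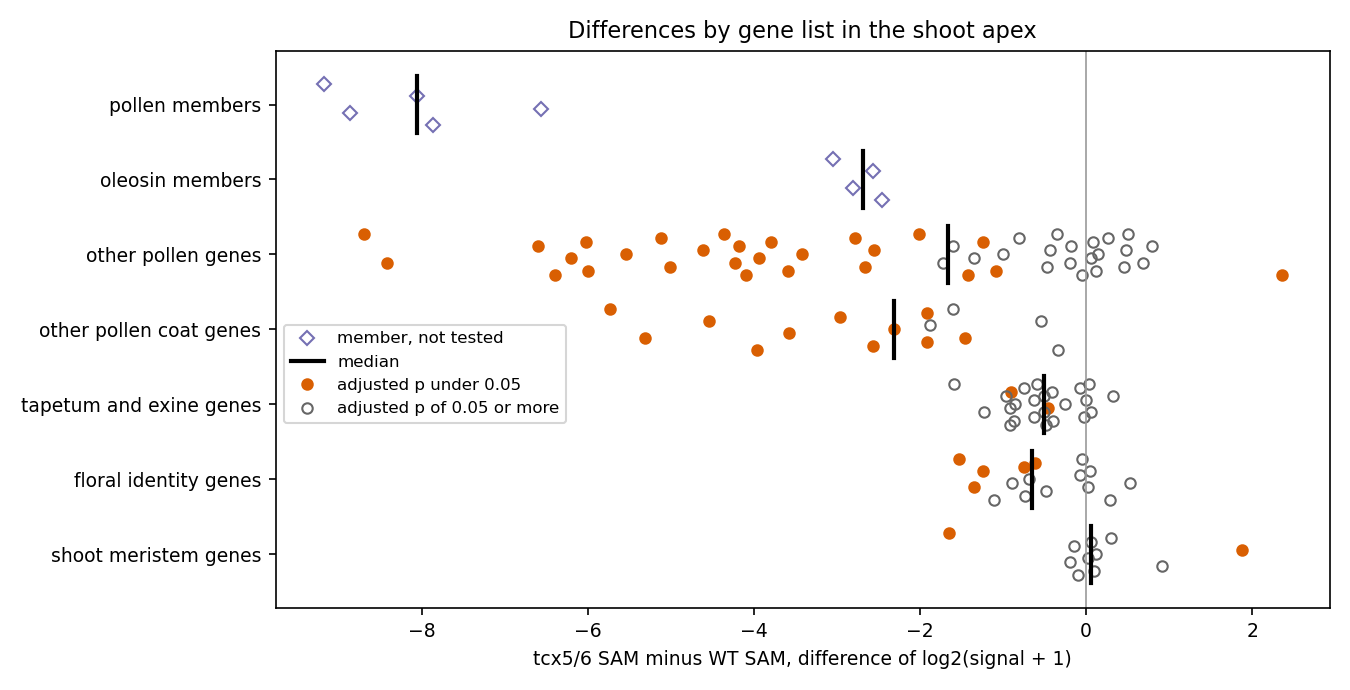
Difference of log2(signal + 1), tcx5/6 SAM minus WT SAM, for the chosen genes and for other marker lists; filled circles have an adjusted p under 0.05, open circles do not, diamonds were not tested and bars are medians. Over all list genes tested, pollen and pollen coat lists have medians of -1.66 and -2.31, tapetum and exine genes -0.51, and shoot meristem genes 0.06. Without genes that needed 1 SAM group to pass the filter on low values, the pollen and pollen coat medians are -1.08 and -1.92.

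Floral identity genes were compared because the pollen genes are made in flowers. Of 16, 5 fell and 11 did not pass in tcx5/6 SAM, with a median log2 difference of -0.65, where 14.5% of all genes fell. SEP2, which helps specify floral organs, stood at 841 and 866 in tcx5/6 SAM against 2566 and 2375 in WT SAM (log2 -1.53 ± 0.23 SE, adjusted p = 0.00265). SHP1 stood at 137 and 135 in tcx5/6 SAM, against 314 and 330.5 in WT SAM (log2 -1.24 ± 0.20 SE, adjusted p = 0.00374). CRC, a carpel gene, stood at 349 and 404 in tcx5/6 SAM, against 706 and 691 in WT SAM (adjusted p = 0.0524). SHP2, AG and PI also fell, by 1.35, 0.75 and 0.61 on the log2 scale, and were named after their values were seen. Without 1 SAM library fewer of the 16 were called lower, when fewer of all genes were called as well. With only the SAM groups in the fit 9 of the 16 fell, where 19.7% of all genes fell. Of 11 shoot meristem genes, WUS, which keeps the stem cell niche, fell to 49.1 and 46.5 in tcx5/6 SAM, against 141 and 164 in WT SAM (adjusted p = 0.00868). CLV3, which limits that niche, stood at 1.86 and 3.68 in tcx5/6 SAM, against a listed 0 in both WT SAM libraries and in leaf, so it passed the filter through tcx5/6 SAM alone and its direction is not read. FD and KNAT6 did not pass, with adjusted p of 0.0998 and 0.870, and neither did the other 7. All 10 photosynthesis genes fell in tcx5/6 SAM, with a median of -0.57. RBCS3B stood at 81182 and 82442 in tcx5/6 SAM, against 175478 and 182839 in WT SAM. RCA and RBCS1A fell by 0.95 and 0.75 on the log2 scale. Of these 10 genes, 8 were higher and 2 lower in WT SAM than in WT leaf, where 43.2% of all genes were higher and 35.6% lower. RBCS3B stood at 28681 and 29255 in WT leaf, so the list is not read as a mark of leaf tissue. Of 10 ovule and seed genes, 7 were tested and none passed under limma-trend, nor at an unadjusted p under 0.05, and with only the SAM groups in the fit 1 fell. STK, the ovule identity gene, stood at 95.5 and 78.2 in tcx5/6 SAM, against 301 and 275 in WT SAM (adjusted p = 0.280). Summed floral identity signal and all 10 photosynthesis genes were thus lower in tcx5/6 SAM, as the pollen genes were, and their part in the result was not tested.

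The same measure was tested in leaf, where the chosen genes were scarce. PGA4 fell to 2.37 and 0.0307 in tcx5/6 leaf, against 15.1 and 28.1 in WT leaf (log2 -3.54 ± 0.65 SE, limma-trend adjusted p = 0.00439). VGD1 fell to 0 in both tcx5/6 leaf libraries, against 6.33 and 2.27 in WT leaf (adjusted p = 0.0157). VGDH2 fell to 0 in both tcx5/6 leaf libraries, against 8.43 and 2.31 in WT leaf (adjusted p = 0.0141). These 3 were the members called in leaf, where 21.4% of all genes fell and 21.3% rose. The count is not read against these shares. PGA4, VGD1 and VGDH2 reached the filter on low values in WT leaf, the leaf group where they are high, as well as in WT SAM. The other chosen genes passed it only through SAM libraries, and genes at 0 in leaf could not be called there. WT leaf means came to 1.87% of the WT SAM mean for PGA4, 0.809% for VGDH2 and 0.429% for VGD1. PPME1, HA6, GRP14, GRP18 and GRP17 were listed at 0 in all 4 leaf libraries. GRP19 was at 0 in both tcx5/6 leaf libraries and at 0.0167 and 2.14 in WT leaf (adjusted p = 0.218). The calls of VGD1 and VGDH2 were lost without WT leaf replicate 1, with log2 differences of -1.71 and -1.73, and with only the leaf groups in the fit. Over all alternatives their adjusted p ran from 0.00231 to 0.0798 and from 0.00853 to 0.0651, and that of PGA4 from 0.00185 to 0.0301. GRP20 also fell in tcx5/6 leaf, to 4.78 and 1.20 against 21.2 and 15.4 in WT leaf (adjusted p = 0.00400). Genes of the pollen list went both ways in leaf, as these examples, named after their values were seen, show. AT3G07850 and AT5G07410 fell by 3.09 and 2.85 on the log2 scale (adjusted p of 0.000335 and 0.00316). CNGC18 and PRF4 rose by 4.05 and 3.36 (adjusted p of 5.89e-05 and 0.00225).

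The pollen genes were nearly absent from seedlings of every genotype. VGDH2 and HA6 were listed at 0 in all 8 seedling libraries. PPME1 was at 1.45 in tcx5/6 ddm1 replicate 2 and at 0 in the other 7. VGD1 reached at most 4.62 and PGA4 at most 9.26, both in tcx5/6 ddm1 replicate 1. VGD1 and PGA4 passed the filter on low values and were called in none of the seedling comparisons, with unadjusted p of at least 0.179 in each.

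One oleosin gene, GRP19, was high in ddm1 seedlings. It stood at 100.05 and 82.3 in tcx5/6 ddm1 seedlings, 536 and 645 in ddm1, 1.31 and 0.0682 in tcx5/6, and 5.88 and 6.25 in WT. The 4 genotypes did not overlap, and how many of all genes separate in this way was not counted. GRP19 rose in ddm1 against WT by log2 6.38 ± 0.43 (SE, adjusted p = 9.02e-06) and in tcx5/6 ddm1 against WT by 3.70 ± 0.43 (adjusted p = 0.000138). In tcx5/6 ddm1 against ddm1 it fell by 2.68 (adjusted p = 0.00179). In tcx5/6 against WT it fell by 2.17 (adjusted p = 0.0152). This last call was lost without tcx5/6 replicate 2 (log2 -1.61), without WT replicate 1 (log2 -2.21) and without WT replicate 2 (log2 -2.13), and its adjusted p ran from 0.0146 to 0.104 over the alternatives. An interaction term for the 2 tcx5/6 differences, added after the values were seen, did not pass (log2 -0.51 ± 0.61 SE, adjusted p = 0.623), where 9.51% of all genes had a negative call. Of the 9 chosen genes, 6 passed the filter on low values in seedlings, each through any 2 of the 8 libraries, so counts among them are not read against the shares of all genes. GRP19 was the 1 that rose in ddm1 against WT, where 26.3% of all genes rose and 23.3% fell. GRP18 fell there, at 0 in both ddm1 libraries against 4.65 and 3.33 in WT (adjusted p = 0.0219), a call lost without any 1 of the 4 libraries, with adjusted p from 0.0115 to 0.118 over the alternatives.

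The other chosen oleosin genes stayed low in seedlings. GRP17 reached 10.3 in ddm1 replicate 1 and was 0 in ddm1 replicate 2 and in all tcx5/6 and WT seedlings, with 3.43 and 4.01 in tcx5/6 ddm1. GRP14 stood at 8.53 and 6.45 in tcx5/6 ddm1 against 0.0252 and 1.43 in WT (log2 2.42, adjusted p = 0.0160). GRP14 and GRP19 were the 2 that rose in tcx5/6 ddm1 against WT, where 29.5% of all genes rose. The call of GRP14 was lost without tcx5/6 ddm1 replicate 1 (log2 2.24) or WT replicate 1 (log2 1.80), with adjusted p from 0.0130 to 0.120 over the alternatives. In tcx5/6 ddm1 against ddm1, GRP19 fell and GRP18 rose, where 21.6% of all genes fell and 17.7% rose. GRP18 stood at 2.67 and 4.08 in tcx5/6 ddm1 and at 0 in ddm1 (adjusted p = 0.0389), a call lost without any 1 of the 4 libraries and with only these groups in the fit, with adjusted p from 0.0186 to 0.137 over the alternatives. In tcx5/6 against WT seedlings, GRP19 was the 1 called, where 4.35% of all genes fell, and GRP17, at 0 in all 4 libraries, could not be called.

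Several neighbours of GRP19 were also high in ddm1 seedlings. GRP20, 2.19 kb from the start of GRP19, stood at 7.10 and 29.0 in tcx5/6 ddm1, 329 and 332 in ddm1, 2.88 and 4.43 in tcx5/6, and 7.20 and 11.9 in WT seedlings. AT5G07570, a glycine and proline-rich protein gene 141 bases beyond GRP20 on the other strand, stood at 117 and 138 in tcx5/6 ddm1, 2109 and 2222 in ddm1, 15.8 and 6.99 in tcx5/6, and 21.0 and 17.6 in WT. AT5G07580, an ERF transcription factor gene at 10.5 kb, stood at 1442 and 1577 in tcx5/6 ddm1, 4530.0 and 4326 in ddm1, 785 and 972 in tcx5/6, and 512 and 549 in WT. In all 3 genes both ddm1 libraries lay above every other seedling library, and how many of all genes do so was not counted. The log2 differences of ddm1 against WT were 5.01 ± 0.61 for GRP20, 6.74 ± 0.35 for AT5G07570 and 3.06 ± 0.11 for AT5G07580 (SE, adjusted p of 0.000231, 2.27e-06 and 4.88e-07). In tcx5/6 ddm1 against ddm1 they fell by 4.41, 4.08 and 1.55 (adjusted p of 0.000856, 8.31e-05 and 3.40e-05). On the GRP14 side of GRP19, GRP16 was listed at 0 in all 8 seedling libraries. On the far side AT5G07590, which overlaps the end of AT5G07580, did not pass in ddm1 against WT (log2 0.17, adjusted p = 0.175). Beyond it AT5G07610 rose, at 421 and 333 in ddm1 against 128 and 140.0 in WT (log2 1.48 ± 0.17 SE, adjusted p = 0.000146), as did AT5G07620, at 166 and 183 in ddm1 against 99.4 and 91.2 in WT (log2 0.87 ± 0.19 SE, adjusted p = 0.00577). Unlike the 3 nearer genes, neither was called in tcx5/6 ddm1 against ddm1 (log2 0.27 and -0.23, adjusted p of 0.228 and 0.371). Calls also came from scarce loci: AT5G07605 rose, at 1.86 and 3.42 in ddm1 against 0 in WT (adjusted p = 0.0429), and AT5G07555, numbered between GRP19 and GRP20, fell, at 0 in ddm1 against 5.73 and 2.01 in WT (adjusted p = 0.0391). Each of these 2 calls was lost under 5 of 9 alternatives, with adjusted p from 0.0296 to 0.149 for AT5G07605 and from 0.00665 to 0.229 for AT5G07555. AT5G07571 and AT5G07572 did not pass (adjusted p of 0.163 and 0.205). In all, 13 of 24 other loci from AT5G07490 to AT5G07620 were tested in ddm1 against WT: 6 rose, 1 fell and 6 did not pass. Over all genes tested, 26.3% rose and 23.3% fell. The count is not read against these shares, since loci could pass the filter on low values through the ddm1 libraries. AT5G07605, at 0 in WT, could only rise, and AT5G07555, at 0 in ddm1, could only fall.

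The ddm1 and tcx5/6 ddm1 libraries also differ from tcx5/6 and WT seedlings in how values were written. They hold 653 to 1172 values of exactly 0, and the WT and tcx5/6 seedling libraries hold 0. How these libraries were processed and the ddm1 genotype cannot be told apart in comparisons with WT. The comparison of tcx5/6 ddm1 with ddm1 lies within one kind of library. The seed storage gene CRU3 stood at 854 in ddm1 replicate 1 and at 5.09 in replicate 2, and GRP17 was likewise higher in replicate 1. GRP19, GRP20, AT5G07570 and AT5G07580 were similar in both, at the values given above. What sets the ddm1 replicates apart, and its part in the ddm1 values, was not tested.

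The same region was read in the SAM libraries. Of 24 other loci from AT5G07490 to AT5G07620, 14 were tested in tcx5/6 SAM against WT SAM: 5 fell, 2 rose and 7 did not pass. Over all genes tested, 14.5% fell and 15.6% rose, so the share that rose is near that of all genes. Of the 14, 2 passed the filter on low values only through WT SAM, and 1 of these is among the 5. The 5 is therefore not read against 14.5%. Without loci that needed 1 SAM group to pass, 4 of 12 fell and 2 rose, where 13.7% of all such genes fell and 16.1% rose. Besides GRP16 and GRP20, the 5 were the oleosin gene AT5G07600, at 141 and 131 in tcx5/6 SAM against 569.6 and 469.7 in WT SAM (log2 -1.92, adjusted p = 0.00335), and the scarce loci AT5G07490 and PEI1. AT5G07490 stood at 1.91 and 0 in tcx5/6 SAM against 17.7 and 27.8 in WT SAM and passed the filter through WT SAM, and PEI1 at 5.72 and 1.74 in tcx5/6 SAM against 12.5 and 14.5 in WT SAM. The call of PEI1 was lost under 4 of 9 alternatives, with adjusted p from 0.0208 to 0.161. The 2 that rose were AT5G07580, at 2415 and 2404 in tcx5/6 SAM against 1602 and 1793 in WT SAM (log2 0.51), and AT5G07590, at 1405 and 1447 in tcx5/6 SAM against 1029 and 1071 in WT SAM (log2 0.44). AT5G07570 stood at 23.7 and 18.1 in tcx5/6 SAM, against 33.6 and 57.3 in WT SAM, and did not pass (adjusted p = 0.154). Oleosin genes on both sides of AT5G07570 and AT5G07580 were thus lower in tcx5/6 SAM, while AT5G07580 rose and AT5G07570 did not pass.

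**Figure D3:**
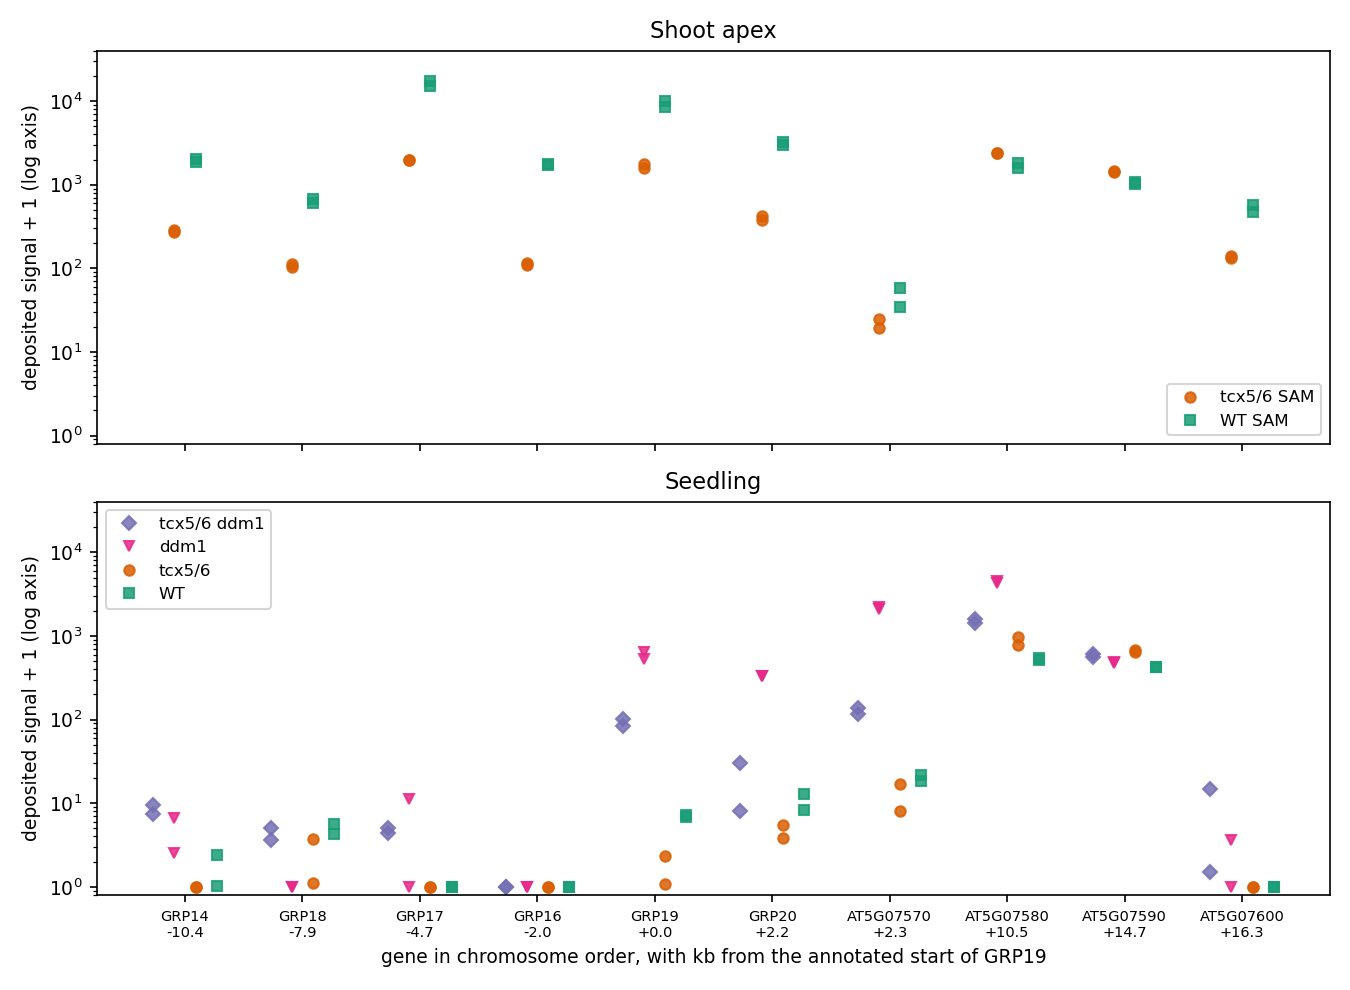
Deposited signal + 1, on a log axis, per library for genes of the oleosin region in chromosome order, in SAM (top) and seedlings (bottom), with the distance in kb from the annotated start of GRP19. Oleosin genes are lower in tcx5/6 SAM than in WT SAM, and in ddm1 seedlings GRP19, GRP20, AT5G07570 and AT5G07580 stand above all other genotypes.

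Genes whose profile was most like the mean of the oleosin genes over the 8 leaf and SAM libraries, which share tissues and genotypes, were sought among 18714 genes with a value of at least 100. They were EXL6 (Pearson r = 0.9997), a coat lipase gene, then XTH3 (0.9997), AT1G20132 (0.9996), AT5G07600 (0.9995) and KT5 (0.9994). EXL6 stood at 423 and 404 in tcx5/6 SAM and at 2621 and 2311 in WT SAM, and all 5 were at 0 in leaf. For the pollen genes, the closest were AT5G19580 (0.9952), AT1G54500 (0.9942), HCF244 (0.9933), LrgB (0.9931) and bZIP44 (0.9902). These follow the outline but with a small range: LrgB stood at 5994 and 5965 in tcx5/6 SAM and at 12915 and 12921 in WT SAM. Restricted, after seeing this, to 2025 genes that range over at least 6 log2 units, the closest were LCR17 (0.9852), AT1G71680 (0.9847), SBT4.13 (0.9839), the sugar transporter gene STP6 (0.9837) and AT3G07820 (0.9834). LCR17 was listed at 0 in tcx5/6 SAM and in leaf and stood at 107 and 80.1 in WT SAM. These correlations describe 8 libraries and carry no test.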

How the data were processed

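RNA-seq values of 16 libraries in 2 tables were used as deposited by the authors, in the unit signal: counts per gene adjusted to a common library size, with fractions. Per the submitters' processing notes, HISAT2, edgeR and TAIR10 were used. Tool versions, how reads were counted and whether strand was used are not given in sources used here. Values under 1e-06 were read as 0.

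Each table of 8 libraries was fitted by itself with limma 3.58.1 (limma-trend, R 4.3.3) on log2(value + 1), 1 coefficient per group, for genes of at least 1 in at least 2 libraries. Benjamini-Hochberg adjustment ran over all genes tested, and an adjusted p under 0.05 made a call. A pseudocount understates changes of low genes. The script was tested on simulated data. The chosen genes and the lists were picked with earlier results of these data known. Named genes were all 9 chosen, the 3 genes per list with the largest SAM difference among those averaging 100 in a SAM group, the 5 closest profiles and the loci AT5G07490 to AT5G07620. Alternatives were another scaling, no filter, a pseudocount of 0.1, only the compared groups, a replicate block and leaving out each library. Sequences and gene models came from RefSeq TAIR10.1 with Biopython 1.88, all 9 loci matched, and figures from matplotlib 3.10.9.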

Additional observations from a re-analysis of the deposited data

Results flagged for a closer look

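The neighbours GRP20, AT5G07570 and AT5G07580 of GRP19 differed in how tcx5/6 acted on the ddm1 and WT backgrounds in seedlings, by an interaction term added after the values were seen. In each, tcx5/6 ddm1 minus ddm1 was more negative than tcx5/6 minus WT, and 9.51% of all genes tested had a negative interaction call. For GRP20 the interaction was -3.24 on the log2 scale (SE 0.86, limma-trend adjusted p = 0.0412). That call was lost with a pseudocount of 0.1 and without any 1 of 6 libraries, with adjusted p from 0.00818 to 0.145 over 12 alternatives. For AT5G07570 it was -3.28 (SE 0.49, adjusted p = 0.00485, with 0.00316 to 0.0265 over 12 alternatives). For AT5G07580 it was -2.27 (SE 0.15, adjusted p = 0.000199, with 0.000174 to 0.00274 over 12 alternatives). On the WT background AT5G07580 rose by log2 0.72 in tcx5/6 seedlings, and on the ddm1 background it fell by 1.55. The library kind differs between the backgrounds, and its part in these interactions was not tested.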

How the results depend on the processing

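No result turned direction under any alternative. The count of genes called in tcx5/6 SAM against WT SAM was 7356, with 4675 to 5068 when 1 SAM library was left out. In tcx5/6 against WT seedlings it was 2905, with 6508 with only the compared groups in the fit and 988 to 1313 without 1 library. In tcx5/6 ddm1 against ddm1 it was 9832, with 6497 with only the compared groups. Pollen list genes called lower in SAM numbered 26, with 15 to 21 without 1 library and 16 without genes that needed 1 SAM group to pass the filter. Tapetum and exine genes called lower numbered 2, with 1 at a pseudocount of 0.1, 14 with only the compared groups, and 0 to 1 without 1 library; the cause was not tested. With a pseudocount of 0.1, the log2 differences of VGDH2 and HA6 in tcx5/6 SAM were -10.97 and -9.86, against -8.87 and -8.05 with 1, since a smaller pseudocount widens differences from values near 0. Of single-gene results under alternatives, 381 stayed on their side of the threshold and 51 did not. Replicate numbers did not pair the libraries: deviations of same-numbered libraries correlated at -0.0806 to 0.0224 in leaf and SAM and at -0.0459 to 0.103 in seedlings. A replicate block gave 6951 calls in SAM, 10123 in leaf and 2810 in tcx5/6 seedlings. Depth is unknown, so values near 0 carry no floor.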
